A study of Mus musculus with 4 samples.

Results

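The Notch pathway was read in fetal mouse lung through 10 genes: the receptors Notch1, Notch2, Notch3 and Notch4, the ligands Dll1, Dll4, Jag1 and Jag2, and the target genes Hes1 and Hey1. They were taken by symbol from the annotation of both array designs, which names 18193 genes in all. The 10 genes had 19 probe sets, 17 on the design MOE430A and 2 on MOE430B. RNA came from lungs of E18.5 embryos, shortly before birth, that lacked both Myf5 and Myod1 (labelled Myf5-/-:MyoD-/-, with the genotype given as a double null on BALB/c), and from lungs of BALB/c wild type embryos of the same age. Myf5 and Myod1 encode the transcription factors that commit cells to skeletal muscle, and embryos without both form no skeletal muscle and make no fetal breathing movements. The series title names the part of skeletal muscle in lung development as its question. Biotin-labelled cRNA was hybridised to Affymetrix 3' expression arrays, 1 array for each genotype on each design, 4 in all. The labels do not say whether RNA was pooled over embryos, and whole lung was used, so fewer cells of a type and less RNA per cell cannot be told apart.

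Notch receptors are single-pass membrane proteins that are activated by Delta-like and Jagged ligands on a neighbouring cell. Ligand binding lets ADAM proteases and then γ-secretase cut the receptor, and the freed intracellular domain joins the DNA-binding protein Rbpj and Mastermind coactivators to switch on genes of the Hes and Hey families. In the lung the pathway is known for setting secretory against ciliated fate in the airway, for limiting neuroendocrine cells, and for the growth of vessels and their mural cells. Outside the lung, Notch1 directs lymphoid progenitors in the thymus into the T cell lineage.

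With 1 array per genotype and design there was no replicate and no test, and the number of arrays limits the precision of every value. As a guide to error, 100 probe sets are present on MOE430A and on MOE430B. The SD of a single log2 ratio taken from them was 0.24, leaving out an offset, as MOE430B gave ratios lower by a mean of 0.22. It covers technical error only and not the spread between embryos or RNA samples, which is not known here. It was not worked out by signal level, so its size for the dimmer Notch probe sets is not known. The labels were checked first. Myod1 read 1081 in the MOE430A array labelled double knockout, against 85.0 in the array labelled wild type, which goes against the labels unless the probe set lies outside the deleted part. Myf5 read 8.94 in the array labelled double knockout and 110.5 in the array labelled wild type, both below the floor used here. A second Myod1 probe set, on MOE430B and below the filter, read 607.2 in the array labelled double knockout and 337.2 in the array labelled wild type. The check thus did not bear out the labels. The genotypes are named as labelled all the same, and every direction below rests on those labels. Xist, the RNA of the inactive X chromosome, read 2749 in the array labelled double knockout and 7600 in the array labelled wild type. Probe sets of the Y-linked genes Eif2s3y, Kdm5d and Uty were all below the filter. Each was higher with the label double knockout or below the floor in both arrays. Sex, which the labels do not give, cannot be told apart from genotype. Sftpc, the surfactant protein that defines alveolar type II cells, read 113337 in the array labelled double knockout and 78525 in the array labelled wild type. These are the signals of its brightest probe set, and another gave a larger ratio, as given below.

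Most Notch genes read alike in the arrays of both genotypes. A probe set was measured when its higher signal reached the median of its design (787.4 on MOE430A, 855.1 on MOE430B), and 14 of the 19 probe sets did so, reading 9 of the 10 genes. All 3 probe sets of Notch4 stayed below. Reading each gene by its brightest measured probe set, 0 of the 9 genes differed by 1.5-fold or more in the arrays labelled double knockout, where 9.44% of all 12559 genes measured were higher and 9.67% lower by that much. At 2-fold the count was also 0, where 3.85% of all genes were higher and 3.64% lower. These shares of all genes, here and below, pool both designs, while every representing probe set but that of Jag1 lay on MOE430A. Ratios spread more on MOE430B, as given below. Among measured probe sets of MOE430A, only 1.8% rose and 2.05% fell by 2-fold or more. The share past 1.5-fold was not worked out for MOE430A alone. The counts of 0 thus do not set the Notch genes apart from other genes. The brightest probe set was chosen by the mean log2 signal of both arrays. A probe set low in either array was thus less likely to represent its gene, and the counts depend on this rule. The median log2 ratio of double knockout over wild type was 0.16 over the 9 genes and -0.016 over all genes. The 9 values ran from -0.53 for Dll4 to 0.27 for Dll1. Counted by probe set, 7 of the 14 had ratios above 0 and 7 below, with a median of 0.06, and 9 lay within 1 SD of 0. The exceptions at 2-fold were single probe sets of Notch1 and Jag2, which both read lower with the label double knockout. The other probe set of each gene was near 0, at 0.16 for Notch1 and -0.04 for Jag2.

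**Figure D1:**
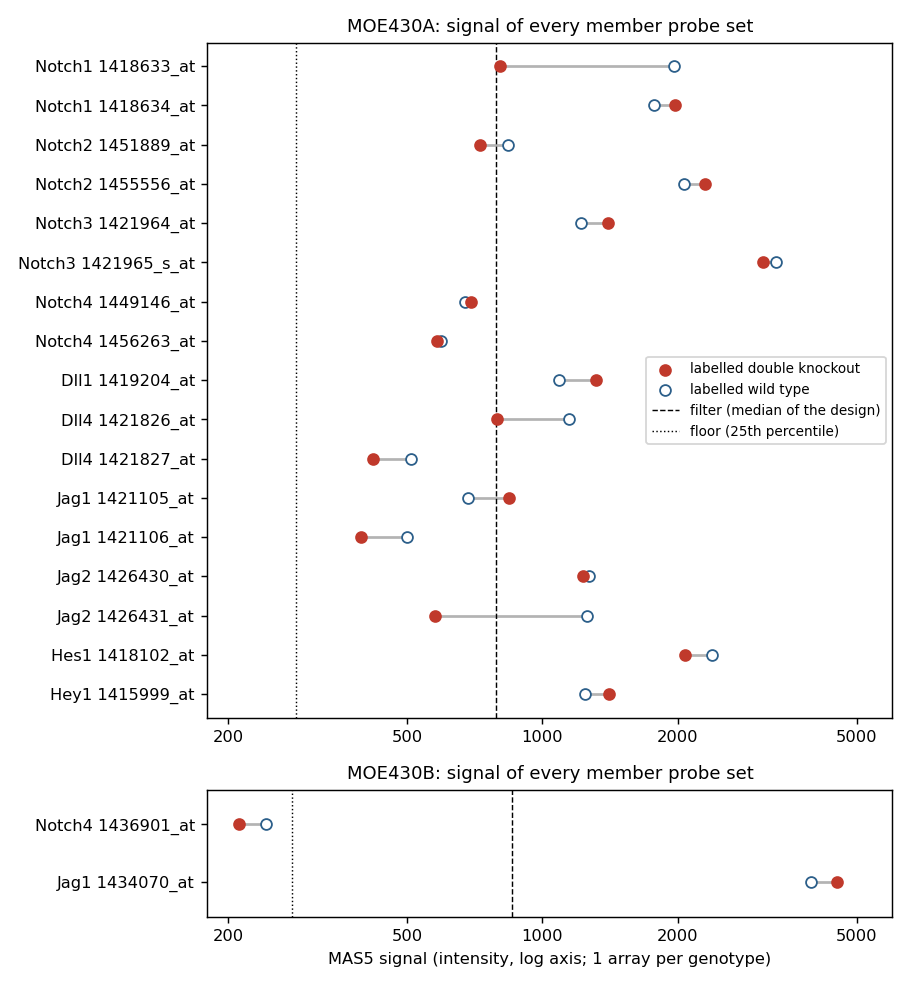
MAS5 signal (intensity, log axis) of the 19 probe sets of the Notch genes in the array labelled double knockout (filled) and the array labelled wild type (open), with MOE430A above and MOE430B below. Lines mark the filter at the median of each design and the floor at its 25th percentile; the signals lie close together except for 1418633_at of Notch1 (803.4 and 1961) and 1426431_at of Jag2 (576.6 and 1256).

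Among the receptors, Notch1 was read by 2 probe sets on MOE430A that disagreed. The probe set 1418633_at read 803.4 in the array labelled double knockout, against 1961 in the array labelled wild type, a log2 ratio of -1.29, or a 2.44-fold decrease. Of all measured probe sets of MOE430A, 1.29% had a ratio as low or lower. The probe set 1418634_at read 1972 in the array labelled double knockout and 1768 in the array labelled wild type, a log2 ratio of 0.16. The array labelled double knockout was thus far below the array labelled wild type by the first probe set and slightly above it by the second. The second was the brighter over both arrays and represents the gene above. In the array labelled wild type alone the first was the brighter, so its low value in the other array bore on the choice. The median of both was -0.56, so the direction given for Notch1 turns with the rule for choosing between them.

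Notch2, the receptor most tied to secretory cell fate in the mouse airway, also had 2 measured probe sets. The brighter, 1455556_at, read 2298 in the array labelled double knockout and 2063 in the array labelled wild type, a log2 ratio of 0.16. The other, 1451889_at, read 725.3 in the array labelled double knockout and 838.3 in the array labelled wild type, a ratio of -0.21, and was measured through the wild type signal only. Both ratios were smaller than the SD of 0.24. Notch3, the receptor of pericytes and vascular smooth muscle, gave 3088 in the array labelled double knockout and 3308 in the array labelled wild type by 1421965_s_at, a log2 ratio of -0.10. By 1421964_at it gave 1401 in the array labelled double knockout and 1217 in the array labelled wild type, a ratio of 0.20. The suffix of the brighter Notch3 probe set marks it as one that may also match other transcripts, and without such probe sets the gene is read at 0.20.

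Notch4, a receptor largely restricted to endothelium, was not measured by the filter. Its MOE430A probe sets read 693.6 and 582.1 in the array labelled double knockout, against 672.4 and 596.3 in the array labelled wild type. The signals differed little, with log2 ratios of 0.04 and -0.03. Its MOE430B probe set was below the floor of 278.1 in both arrays, at 211.9 in the array labelled double knockout and 243.3 in the array labelled wild type, and gives no ratio.

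**Figure D2:**
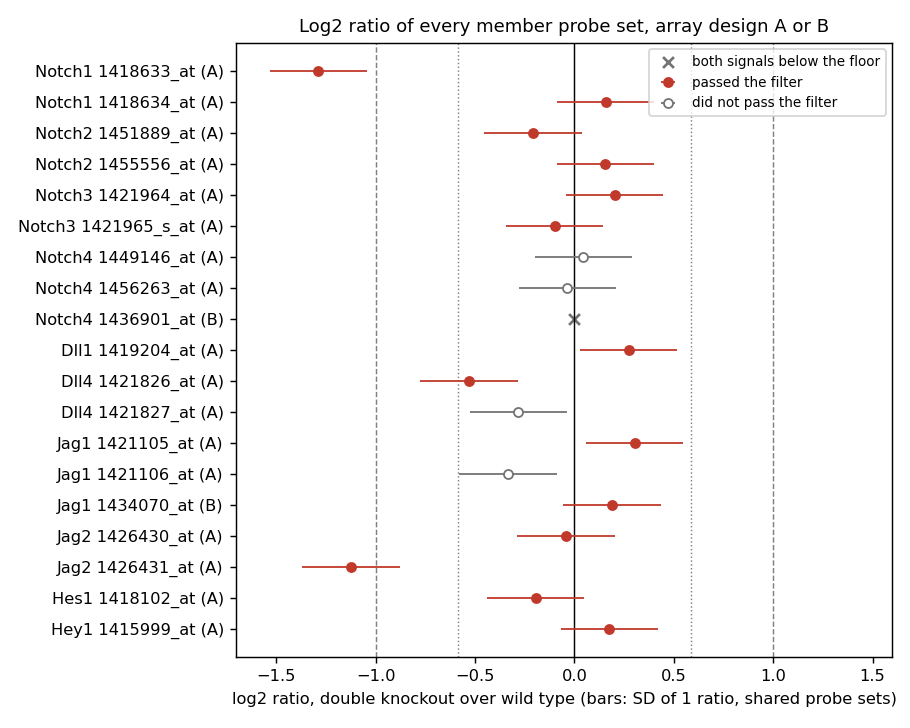
Log2 ratio of double knockout over wild type for each probe set of the Notch genes, with array design A or B in brackets and bars of 1 SD (0.24) taken from the 100 probe sets shared by the designs. Broken and dotted lines mark 2-fold and 1.5-fold; 2 measured probe sets, of Notch1 (-1.29) and Jag2 (-1.12), lie beyond 2-fold and none beyond it on the higher side.

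Of the ligands, Dll4, which is made by endothelial tip cells and arteries, had the lowest ratio among the 9 representing probe sets. Its probe set 1421826_at read 792.0 in the array labelled double knockout, against 1143 in the array labelled wild type, a log2 ratio of -0.53. That is 1.44-fold lower and short of 1.5-fold, and 9.01% of measured MOE430A probe sets were as low or lower. Its dimmer probe set 1421827_at, below the filter, read 419.3 in the array labelled double knockout and 509.7 in the array labelled wild type, a ratio of -0.28. Both Dll4 probe sets thus read lower with the label double knockout, and without a replicate the difference cannot be set against the spread between samples. Dll1, a Delta-like ligand carried in the lung by neuroendocrine cells among others, went the other way. It read 1317 in the array labelled double knockout and 1091 in the array labelled wild type by its probe set 1419204_at, a log2 ratio of 0.27.

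Jag1, a ligand of airway epithelium and vessel walls, was the 1 member measured on both designs. On MOE430B its probe set 1434070_at read 4512 in the array labelled double knockout and 3957 in the array labelled wild type, a log2 ratio of 0.19. On MOE430A, 1421105_at read 840.5 in the array labelled double knockout and 681.5 in the array labelled wild type, a ratio of 0.30, measured through the double knockout signal only. A ratio above 0 was thus built into the choice of 1421105_at, and it does not show that the designs gave the same direction. Another MOE430A probe set, 1421106_at, below the filter, read -0.33. It had 395.7 in the array labelled double knockout and 499.0 in the array labelled wild type.

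Jag2, the second Jagged ligand, also had probe sets that differed in size of ratio. By 1426431_at it read 576.6 in the array labelled double knockout, against 1256 in the array labelled wild type, a log2 ratio of -1.12 and 2.18-fold lower. It was measured through the wild type signal only, so a low value in the other array was built into its choice. By 1426430_at it read 1234 in the array labelled double knockout and 1270 in the array labelled wild type, a ratio of -0.04. The array labelled double knockout was thus low by 1 of the Jag2 probe sets only.

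How unusual such splits were can be read from the rest of MOE430A. Its 5153 pairs of measured probe sets of 1 gene differed by a median of 0.30 on the log2 ratio scale. The Notch1 pair differed by 1.44, and 1.63% of pairs were as far apart or farther. The Jag2 pair differed by 1.08, with 1 of its probe sets measured through the wild type signal only, and is not ranked among the pairs for that reason. The pairs of Notch2 (0.36) and Notch3 (0.30) were close to the median pair. At 2-fold, 2 of the 13 measured Notch probe sets of MOE430A were lower and 0 higher, where 2.05% and 1.8% of all measured probe sets of the design were. Of these 2, the Jag2 probe set was measured through the wild type signal only, and without it the count is 1, so the count is a description and not a sign that Notch probe sets were low more often than others. Within the range of mean signal that the Notch probe sets cover, 1.31% of 8503 probe sets were lower by 2-fold or more, and 1.09% were higher. Where the probe sets lie on the transcripts of Notch1 and Jag2 was not analysed here.

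**Figure D3:**
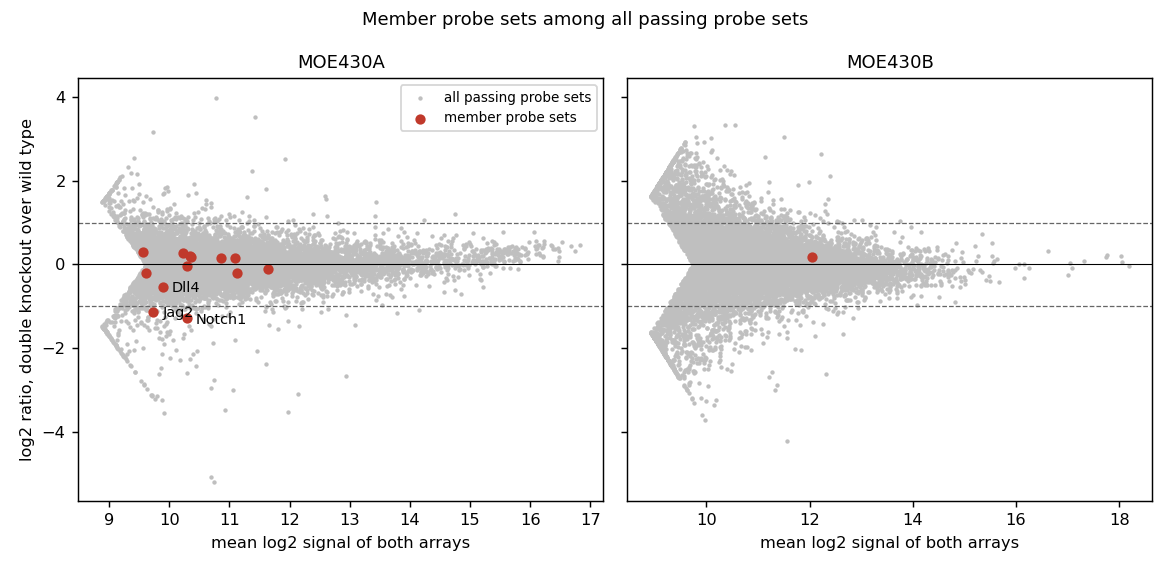
Log2 ratio of double knockout over wild type against the mean log2 signal of both arrays for all measured probe sets (grey) and those of the Notch genes (red), MOE430A left and MOE430B right, with broken lines at 2-fold. Of the 13 Notch probe sets on MOE430A, those of Jag2 and Notch1 lie below the 2-fold line, and the 1 on MOE430B (Jag1) lies at 0.19.

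Both target genes lay near 0. Hes1, a repressor of the basic helix-loop-helix class that holds back neuroendocrine fate in the airway, read 2080 in the array labelled double knockout and 2379 in the array labelled wild type by 1418102_at, a log2 ratio of -0.19. Hey1, a related repressor of endothelium and vascular smooth muscle, read 1405 in the array labelled double knockout and 1244 in the array labelled wild type by 1415999_at, a ratio of 0.18. The targets thus differed in direction, each by less than the SD of 0.24, and neither has another probe set to set beside it.

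The rest of the pathway was read through a list of 55 further genes, of which 50 were paired with probe sets here and 41 were measured. Their median log2 ratio was -0.04, with 2 genes higher and 5 lower by 1.5-fold or more, against 9.44% and 9.67% of all genes. The 6 measured genes of the nuclear complex ran from -0.35 to 0.13, and Rbpj itself gave -0.06, -0.06 and -0.013 by 3 probe sets. The 8 measured genes of receptor cleavage, with Adam10, Adam17 and subunits of γ-secretase, ran from -0.55 to 0.38. The low end was Psenen by its probe set on MOE430B, and the same probe set on MOE430A gave -0.007. Of 4 other ligands, Dlk1 and Dlk2 were measured, at 0.38 and 0.03.

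The gene with the lowest ratio was Ptcra, the α chain of the pre-T cell receptor and a Notch target in mouse thymocytes. It read 315.2 in the array labelled double knockout, against 1323 in the array labelled wild type, a log2 ratio of -2.07 and 4.20-fold lower. It was measured through the wild type signal only, and with the floor raised to the median of the design its ratio was -0.75. Lfng, a glycosyltransferase that modifies Notch receptors and so their response to ligands, read 953.9 in the array labelled double knockout and 1642 in the array labelled wild type, 1.72-fold lower. The other glycosyltransferases did not share this, with Mfng at 0.05 and Rfng at 0.48. Numbl, an adaptor related to the Notch inhibitor Numb, read 892.5 in the array labelled double knockout and 1445 in the array labelled wild type, 1.62-fold lower, while Numb itself had 0.25.

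On MOE430B, where ratios spread more (SD 0.82 over measured probe sets, against 0.47 on MOE430A), Neurl1b, a ubiquitin ligase of Notch ligands, was 1.70-fold lower, with 3151 in the array labelled double knockout and 5371 in the array labelled wild type. Hdac2, a histone deacetylase of corepressor complexes, was 1.75-fold lower there (8933 in the array labelled double knockout, 15617 in the array labelled wild type) and had -0.40 on MOE430A. Shared probe sets gave log2 ratios lower on MOE430B by a mean of 0.22. The MOE430B values of Neurl1b and Hdac2 are not corrected for that offset, and whether they would pass 1.5-fold without it was not worked out. Dtx3, a ubiquitin ligase of the Deltex family read on MOE430A, was higher by 2.12-fold, with 2500 in the array labelled double knockout and 1179 in the array labelled wild type. Neurl1a was 2.73-fold higher by its MOE430B probe set, with 1431 in the array labelled double knockout and 524.2 in the array labelled wild type, but had -0.013 on MOE430A. That MOE430B probe set was measured through the double knockout signal only, and with the floor at the median its ratio was 0.74. The genes past 1.5-fold thus stood on both sides of 0 and in 4 of the 7 roles.

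**Figure D4:**
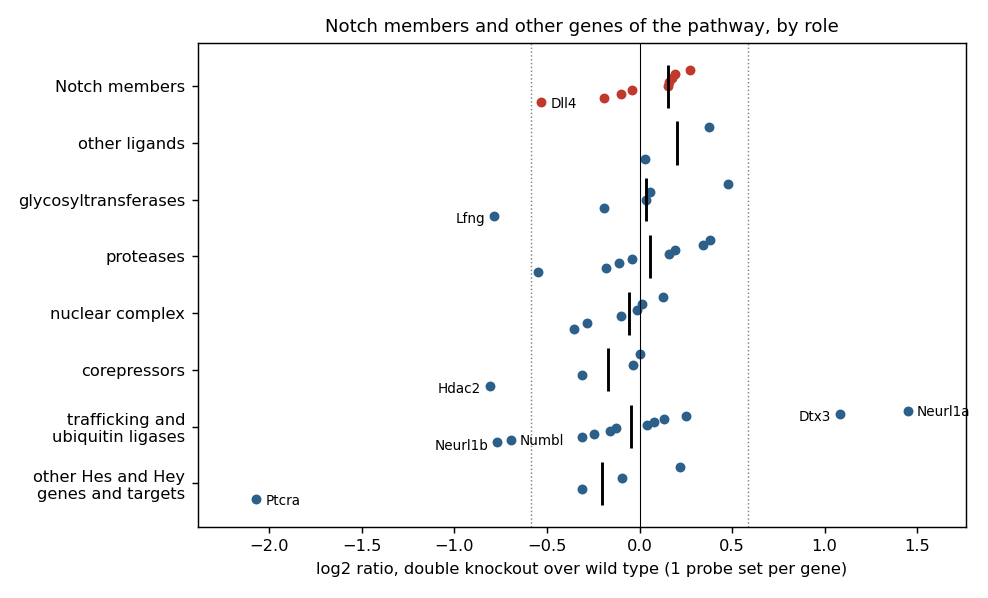
Log2 ratio of double knockout over wild type, 1 point per gene, for the 9 measured Notch genes (red) and 41 further pathway genes (blue) by role; black bars are medians and dotted lines mark 1.5-fold. The Notch genes lie between -0.53 and 0.27, and Ptcra at -2.07 is the lowest of the further genes.

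The cells that carry these genes in the lung were followed through marker lists, read by 1 probe set per gene. Endothelial markers, of the cells that express Dll4, Notch1, Notch4 and Hey1, were close to 0, with a median log2 ratio of 0.10 over 12 genes. Of these, 1 gene was higher by 1.5-fold or more and 0 lower, where 9.44% and 9.67% of all genes were. Their summed MOE430A signal was 44420 in the array labelled double knockout and 40354 in the array labelled wild type over 11 genes. Single members varied, with Pecam1 at -0.34 and Esam at 0.40, and Flt1 had 0.07 but -1.80 by another probe set. Pericyte and smooth muscle markers, of the cells that express Notch3, had a median of 0.23 over 8 genes. Of these, 2 were at least 1.5-fold higher, where 9.44% of all genes were. Their summed signal was 54080 in the array labelled double knockout and 39693 in the array labelled wild type. Most of that sum came from Acta2, smooth muscle actin, with 38726 in the array labelled double knockout and 26823 in the array labelled wild type. Pdgfrb, the PDGF receptor of pericytes, was 1.91-fold higher, while Rgs5, another pericyte gene, was 1.31-fold lower, with other Rgs5 probe sets between -0.60 and 0.40.

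In the airway, where Notch activity favours secretory cells, all 5 club cell markers had ratios above 0, with a median of 0.37. Scgb1a1, the club cell secretory protein, read 20128 in the array labelled double knockout and 11774 in the array labelled wild type, 1.71-fold higher. Neither a tie to Notch activity nor a change of ratio with signal was tested for these markers. Ciliated cell markers were measured for 2 of 5 genes, with Foxj1, the regulator of motile cilia, at -0.52 and Tubb4b at -0.28, though other probe sets of Tubb4b reached 1.42. Of 6 neuroendocrine markers 1 was measured, Ddc at -0.45, with 0.23 by another probe set. Type II cell markers had a median of 0.52 over 4 genes. Other probe sets gave 1.98 for Sftpc, 0.08 for Sftpa1 and 0.11 for Abca3. None of these lists had a gene at least 2-fold different by its representing probe set, where 3.85% of all genes were higher and 3.64% lower. Cardiac muscle markers had a median of 0.07 over 5 genes and differed in direction. Of these, Myl2, a myosin light chain of heart ventricle, read 86011 in the array labelled double knockout and 61909 in the array labelled wild type. Nppa, the atrial natriuretic peptide, was 1.62-fold lower, with 23308 in the array labelled double knockout and 37747 in the array labelled wild type, and Myl7, the atrial myosin light chain, had -0.14. Of 7 skeletal muscle markers 2 were measured. Ckm had 0.27, and Mylpf, a light chain of fast muscle myosin measured through the wild type signal only, was lower by at least 3.23-fold. These 2 thus differed in direction, and the tissue that gave the Ckm signal was not tested.

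Thymocyte markers differed far more. Of 12 listed genes 9 were measured, and 8 of them read lower with the label double knockout by 1.5-fold or more and 7 by 2-fold or more, where 9.67% and 3.64% of all genes did. Their median log2 ratio was -3.12, with 4 genes below the floor in the array labelled double knockout and entered at that floor. The 8 lower genes were all measured through the wild type signal only, so low values in the other array were built into their choice and the counts are a description. The summed MOE430A signal of 8 genes was 2544 in the array labelled double knockout and 22361 in the array labelled wild type, and no marker was at 0. Rag1, which cuts antigen receptor genes, read 135.7 in the array labelled double knockout and 3308 in the array labelled wild type. Of thymic epithelium, 2 of 4 measured markers were at least 1.5-fold lower, where 9.67% of all genes were. Sums over 2 genes were 1540 in the array labelled double knockout and 5361 in the array labelled wild type. That difference was carried by Prss16, a thymic serine protease, with 660.7 in the array labelled double knockout and 4466 in the array labelled wild type. Both lower genes were measured through the wild type signal only. Foxn1, the regulator of thymic epithelium, had -0.02, and -0.46 by another probe set. Ccl25, a chemokine of the thymus, was 1.48-fold higher by its representing probe set on MOE430B but had -3.11 by another. Ptcra and the lower probe sets of Notch1 and Jag2 were low in the same array as the thymocyte markers, and the part of thymic or lymphoid RNA in their values was not tested. The other probe set of Notch1 gave 0.16 and Hes1 gave -0.19 in the same arrays.

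**Figure D5:**
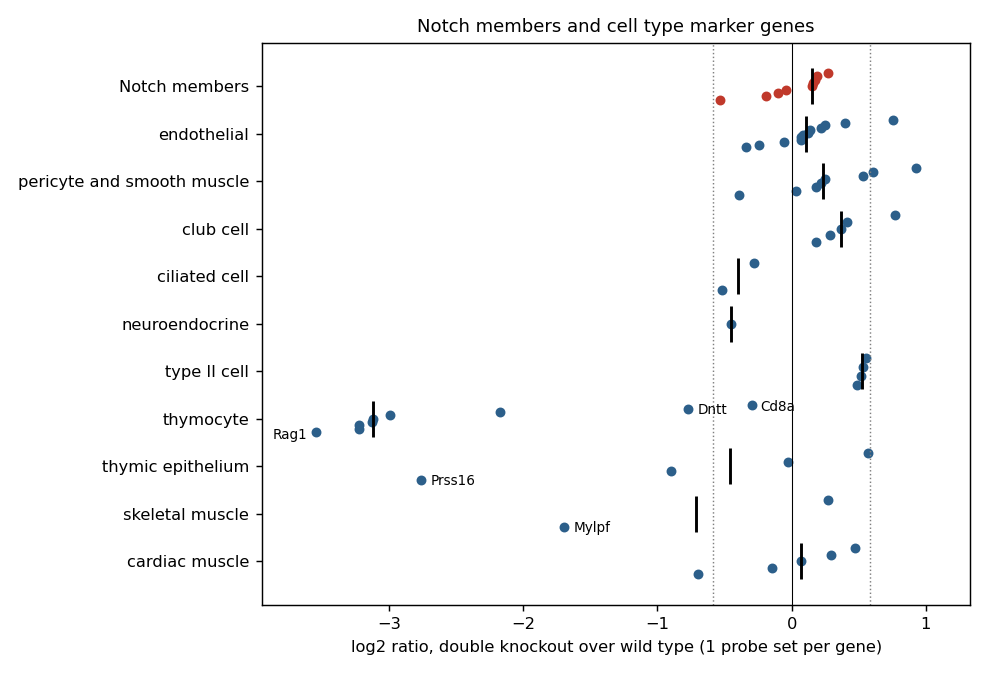
Log2 ratio of double knockout over wild type, 1 point per gene, for the 9 measured Notch genes (red) and the markers of 10 cell types (blue); black bars are medians, dotted lines mark 1.5-fold, and genes below the floor are drawn at their bound. The thymocyte markers lie lowest, with a median of -3.12, and the endothelial markers have a median of 0.10.

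Promoter sequence was read beside these values because Notch acts on transcription through Rbpj, whose binding sites hold the core TGGGAA. RefSeq promoter sequences of GRCm38.p6 gave a window of the 250 bases before the start for 8 of the 10 Notch genes (9 windows, Dll1 having 2), and for 6 of the 7 further genes past 1.5-fold. No window was available for the target genes Hes1 and Hey1, so the 8 were all receptors or ligands. The core was searched on both strands. It occurred in 21.6% of all 32851 windows of that length. It was in 0 of the 8 receptor and ligand genes and in 2 of the 6 further genes, Lfng and Ptcra. A match describes the sequence only, and the absence of one says only that these letters are not in this window. The windows of Notch1 and Jag2 are shown because single probe sets of these genes were the lowest of the pathway's receptors and ligands, and those of Lfng and Ptcra because they were lower and hold the core. All are written 5′ to 3′ on the strand of the gene, with the core, in either orientation, in capitals.
Notch1 promoter (chr2:26503823-26504072, minus strand): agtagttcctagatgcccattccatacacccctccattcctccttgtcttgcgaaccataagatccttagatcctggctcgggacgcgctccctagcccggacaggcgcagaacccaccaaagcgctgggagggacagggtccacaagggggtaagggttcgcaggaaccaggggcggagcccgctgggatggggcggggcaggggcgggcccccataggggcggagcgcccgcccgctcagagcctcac
Jag2 promoter (chr12:112929496-112929745, minus strand): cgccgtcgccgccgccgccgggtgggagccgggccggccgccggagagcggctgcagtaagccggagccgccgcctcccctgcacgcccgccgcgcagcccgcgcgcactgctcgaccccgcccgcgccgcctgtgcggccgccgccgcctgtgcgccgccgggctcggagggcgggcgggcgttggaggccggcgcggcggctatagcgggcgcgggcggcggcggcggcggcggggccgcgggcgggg
Lfng promoter (chr5:140607091-140607340, plus strand): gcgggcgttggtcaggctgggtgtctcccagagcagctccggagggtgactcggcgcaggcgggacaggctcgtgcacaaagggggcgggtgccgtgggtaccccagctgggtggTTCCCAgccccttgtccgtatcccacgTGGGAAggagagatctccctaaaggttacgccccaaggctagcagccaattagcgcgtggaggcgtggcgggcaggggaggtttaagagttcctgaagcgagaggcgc
Ptcra promoter (chr17:46763713-46763962, minus strand): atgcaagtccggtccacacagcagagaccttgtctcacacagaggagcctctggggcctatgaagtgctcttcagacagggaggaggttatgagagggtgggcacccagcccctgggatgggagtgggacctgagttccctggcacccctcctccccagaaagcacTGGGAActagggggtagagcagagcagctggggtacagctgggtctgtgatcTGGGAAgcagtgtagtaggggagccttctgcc
The Jag2 window is 87.2% G and C and that of Notch1 66%. In Lfng the core begins 108 bases before the start, and its reverse complement 135 bases before. In Ptcra the core begins 84 and 32 bases before the start. Lfng was 1.72-fold and Ptcra 4.20-fold lower, as given above, while Hdac2, Neurl1b and Numbl, lower by 1.62-fold to 1.75-fold, have no match in their windows.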

How the data were processed

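Signals of 2 Affymetrix designs were analysed, 1 array per genotype on each. The authors deposited 1 linear intensity per probe set. The submitters' processing notes name MAS5, with no version, settings or detection calls in the sources used here. The 2% trimmed mean of each array lay between 1500.18 and 1500.48, so each array had been scaled by itself, and shared probe sets read a median 4.03-fold higher on MOE430B. Ratios were therefore formed within a design only.

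The 64 control probe sets of each design were removed. The arrays labelled double knockout were divided by 1 factor per design (1.004 and 1.008) that set the median ratio of measured probe sets to 1, and the signals given for those arrays are after this step. A probe set was measured when its higher signal reached the median of its design. Signals below the 25th percentile (283.8 and 278.1) were set to that floor. A gene was represented by whichever measured probe set, on either design, had the highest mean log2 signal, which favours MOE430B. Symbols came from GEO's platform annotation, whose Entrez identifiers matched the RefSeq gene table for 20351 of 20380 and 14486 of 14661 probe sets of 1 gene. The annotation names no build, so no coordinates of probe sets are given.

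With 1 array per genotype there was no test, and genes were counted at 1.5-fold and 2-fold. The members, marker lists and further pathway genes were chosen with earlier results of these data known. Every member probe set is given, and of the further pathway genes each one past 1.5-fold. Other names were chosen after values were seen. Of the listed pathway genes 5, and of the marker genes 4, were not analysed here. The steps were tested on simulated arrays, with changes of more than 2-fold planted in genes brighter than the median gene. That test does not cover smaller changes, dim genes or disagreeing probe sets. Python 3.11.15 was used with pandas 2.3.3 and statsmodels 0.14.6. Alternatives covered scaling (as deposited, quantile, loess), floor, filter, choice of probe set, possible cross-hybridisation, each design alone and both on 1 scale.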

Additional observations from a re-analysis of the deposited data

How the results depend on the processing

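The counts of Notch genes past 1.5-fold and 2-fold were 0 in both directions under all 12 alternatives, although MOE430B alone held 1 of the genes and a filter at the 75th percentile kept 5. Their median log2 ratio stayed between -0.03 and 0.19. The 2 probe sets at least 2-fold lower became 1 with the floor at the median, where that of Jag2 was -0.67, 1 with a 75th percentile filter and 0 on MOE430B alone, which has neither. The Notch1 probe set itself kept values from -1.30 to -1.27 wherever it was measured. These counts by probe set and the values of the further genes were set under the alternatives after the data were seen. Read by the median over probe sets, Notch1 was -0.56 and Jag2 -0.58, both just short of 1.5-fold lower. Every other alternative kept the rule of the brightest probe set. The lower probe sets of Notch1 and Jag2 thus did not enter those counts of genes. Of the further pathway genes, those at least 1.5-fold higher numbered 1 with the filter at the 75th percentile, on MOE430A alone and with both designs on 1 scale, and those at least 1.5-fold lower numbered 2, 3 and 2 with that filter, on MOE430A alone and on MOE430B alone, where fewer genes were measured. Neurl1a reversed to -0.013 on MOE430A alone and with both designs on 1 scale, since its MOE430A probe set then represents it. With the floor at the median, Ptcra was -0.75 in place of -2.07 and Neurl1a 0.74 in place of 1.45. No paired analysis was possible because each genotype has 1 array per design. No spread between replicates is known for any of these values, and dim signal kept Notch4 from being measured.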

Other observations

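Further genes regulated by or acting on Notch also split by probe set, and are given as values chosen after they were seen. Hes6, a Hes relative that antagonises Hes1, read 595.6 in the array labelled double knockout and 1223 in the array labelled wild type by 1452021_a_at, 2.05-fold lower. That probe set was measured through the wild type signal only, so a low value in the other array was built into its choice. By 1436050_x_at Hes6 read 1455 in the array labelled double knockout and 1804 in the array labelled wild type, a log2 ratio of -0.31. Nrarp, a feedback inhibitor of Notch signalling and a direct target of it, read 4257 in the array labelled double knockout and 3651 in the array labelled wild type by 1417985_at (0.22), but 1032 in the array labelled double knockout and 1284 in the array labelled wild type by 1417986_at (-0.31). Dtx1, a Deltex ubiquitin ligase and a Notch target in lymphocytes, had a ratio of 0.13, with 1395 in the array labelled double knockout and 1271 in the array labelled wild type. Dtx1 and Ptcra, the latter at -2.07, were read in the same arrays, and no cause of either value was tested.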
